A study of Homo sapiens with 2 samples.

Results

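The epidermal growth factor (EGF) family was followed in HCT116 cells, an established human colon cancer line, on 2 expression arrays. The set holds 4 ligand genes (AREG, EREG, HBEGF and TGFA), 3 receptor genes (EGFR, ERBB2 and ERBB3) and ERRFI1, an inhibitor of the receptors. Members were all probe sets whose gene symbol in the platform annotation is exactly one of these 8 names. That gave 27 probe sets for 7 of the 8 genes, among 41091 probe sets with a single gene symbol. AREG was named by no probe set in the annotation used here and was not analysed. One sample of cells had received siRNAs against both JMJD1A and JMJD1B, which are the older names of the histone H3 lysine 9 demethylases KDM3A and KDM3B, and the other a control siRNA. RNA was taken 2 days after transfection in both, and the arrays are called the double-siRNA array and the control array. No sequence of either siRNA is given in the sources used here. Each condition had 1 array, so no value carries a replicate error, no test could be made, and every difference is one between these samples and hybridizations. Precision is limited by the number of arrays.

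EGF family ligands are made as membrane proteins, and proteases on the cell surface cut them to free the active growth factor. EREG, HBEGF and TGFA bind EGFR, and EREG and HBEGF also bind ERBB4. Ligand binding pairs the receptors and switches on their kinase domains, which feed the RAS/MAP kinase and PI3 kinase routes. ERBB2 has no known ligand and serves as a partner, while ERBB3 has little kinase activity of its own and depends on a partner receptor. ERRFI1, also called MIG6, binds the kinase domain of the receptors, blocks it and promotes receptor turnover, and in many cells it is itself induced by receptor signalling, which makes it a feedback inhibitor. The intestinal epithelium depends on this family for renewal, and EGFR is a drug target in colorectal cancer.

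Values are MAS5 signal intensities, a linear brightness in arbitrary units per probe set. Signals of different probe sets do not give relative transcript amounts, so members were not ordered by level. Brightness served only to choose a gene's probe set and to set ERRFI1 beside other bright genes. A log2 ratio is the double-siRNA array over the control array, and a value of 1 is a 2-fold higher signal. A probe set counted as measured if the geometric mean of its 2 signals reached 50.4, the median over the non-control probe sets. Of the 27 member probe sets, 17 were measured and 10 were not, and each of the 7 genes had at least 1 measured probe set. Each gene is represented by its brightest probe set. Pairs of probe sets of one gene, over 6192 genes, gave an SD of 0.53 for the log2 ratio of 1 probe set. It covers differences between probes and says nothing of the spread between samples.

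The 5 epithelial markers examined (EPCAM, KRT8, KRT18, KRT19 and CDH1) were all measured. Their summed signal was 121440 on the double-siRNA array and 78630 on the control array. Of the fibroblast, leukocyte and endothelial markers, 2 of 4, 1 of 4 and 1 of 3 were measured. Over all markers with a probe set, measured or not, their summed signals were 726, 86.9 and 219 on the double-siRNA array and 431, 59.1 and 127 on the control array. None of those with a probe set was listed at 0. Their part in the results below was not tested. The KDM3B probe sets stood at 16.4% and 11.4% of the control signal and the measured KDM3A probe set at 85.6%, so the label is borne out by KDM3B and not by KDM3A on the deposited scale, where its log2 ratio was -0.22. The 18 hybridization controls, bacterial and phage transcripts added to the hybridization mix, all read higher on the double-siRNA array, with a median log2 ratio of 0.61. Levelling the arrays on them, called the spike-in scale below, would take that amount off every log2 ratio, and the all-gene median of 0.04 would become -0.57, with KDM3A at -0.84. Loess and quantile normalization moved that median by less than 0.01. Both samples list 0.5 µg of total RNA. The controls entered at the hybridization mix, so the spike-in scale gives no amount of RNA per cell. In bulk RNA, fewer cells of a type and less RNA per cell cannot be told apart.

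The sequences just upstream of 3 members are shown because these genes span the pattern described below, with ERRFI1 the member with the highest ratio, HBEGF the ligand with the highest, and EREG the ligand with a lower signal. They are RefSeq promoter windows on GRCh38.p14, cut to the 250 bases before the annotated gene start and written 5′ to 3′ on the gene's own strand. Capitals mark every match, on either strand, to the motifs searched. The ERRFI1 window is chr1:8026310-8026559 (minus strand), the HBEGF window chr5:140346604-140346853 (minus strand) and the EREG window chr4:74364895-74365144 (plus strand).
ERRFI1: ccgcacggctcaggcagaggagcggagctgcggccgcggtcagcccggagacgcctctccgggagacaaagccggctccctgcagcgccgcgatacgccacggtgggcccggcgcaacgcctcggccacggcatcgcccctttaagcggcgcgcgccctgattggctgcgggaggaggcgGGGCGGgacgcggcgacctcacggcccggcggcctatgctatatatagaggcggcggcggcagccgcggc
HBEGF: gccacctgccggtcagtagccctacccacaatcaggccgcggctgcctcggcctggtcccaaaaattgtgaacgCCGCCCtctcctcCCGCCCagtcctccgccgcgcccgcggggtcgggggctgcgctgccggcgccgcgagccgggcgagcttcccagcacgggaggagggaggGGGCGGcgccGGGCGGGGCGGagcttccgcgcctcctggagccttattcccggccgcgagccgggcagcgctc
EREG: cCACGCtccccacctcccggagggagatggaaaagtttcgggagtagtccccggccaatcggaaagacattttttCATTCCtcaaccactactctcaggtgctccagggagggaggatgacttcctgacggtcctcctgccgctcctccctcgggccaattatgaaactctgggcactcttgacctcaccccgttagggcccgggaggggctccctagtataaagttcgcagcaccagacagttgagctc

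Of the 7 measured members, 6 had a window in the table, with 8 windows in all because TGFA and EGFR have 2 each. The Sp1 motif GGGCGG stood once in the ERRFI1 window and 5 times, 2 of them overlapping, in the HBEGF window. With a TGFA and an EGFR window, 4 of the 8 member windows held it, as did 42.6% of all 35116 windows of the same length. The EREG window held no GGGCGG and had 1 GCGTG, a core of the hypoxia response element, and 1 CATTCC, the TEAD motif. GCGTG was in 2 of the 8 member windows, the other a TGFA window, and in 32.2% of all windows. CATTCC was in 2 of the 8 as well, the other an EGFR window, and in 11.9% of all windows. The ERRFI1 and HBEGF windows held 75.2% and 76.4% G or C and the EREG window 58.0%. The AP-1 motif TGANTCA, in 6.57% of all windows, was in 2 of the 8 member windows, in the downstream EGFR window and in that of ERBB2. TGACGTCA (the cyclic AMP response element, in 1.65% of all windows), ACGTG (the other hypoxia core, 18.5%) and the CArG box (1.16%) had no match in any of the 8 windows. These matches describe letters in short windows and nothing about binding.

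By the brightest probe set of each gene, ERRFI1 alone among the members differed by 2-fold or more, and 1 dimmer EGFR probe set did too. So 1 of the 7 measured members was at least 2-fold higher on the double-siRNA array, where 8.91% of all 12561 measured genes were, and 0 of 7 were at least 2-fold lower, where 8.53% were. Over 7 genes, a single one past the line is near the share of all genes and is no result about the family. The members' median log2 ratio was 0.29, against 0.04 over all measured genes, and it turned to -0.32 with the arrays level on the hybridization controls. Of the 17 measured member probe sets, 13 read higher and 4 lower on the double-siRNA array, where 49.7% of all measured probe sets read higher, and on the spike-in scale 5 of the 17 read higher, where 19.8% of all did. Among the 17, 2 were at least 2-fold higher, where 8.88% of all 23360 measured probe sets were. None was at least 2-fold lower, where 10.4% were. Beyond the probe-set SD stood 5 of the 17, all higher, where 22.7% of all measured probe sets were that much higher and 24.1% that much lower. By the brightest probe set of each gene, ERRFI1 and HBEGF stood beyond it, 2 of 7, where 23.8% of genes were that much higher and 21.3% that much lower.

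**Figure D1:**
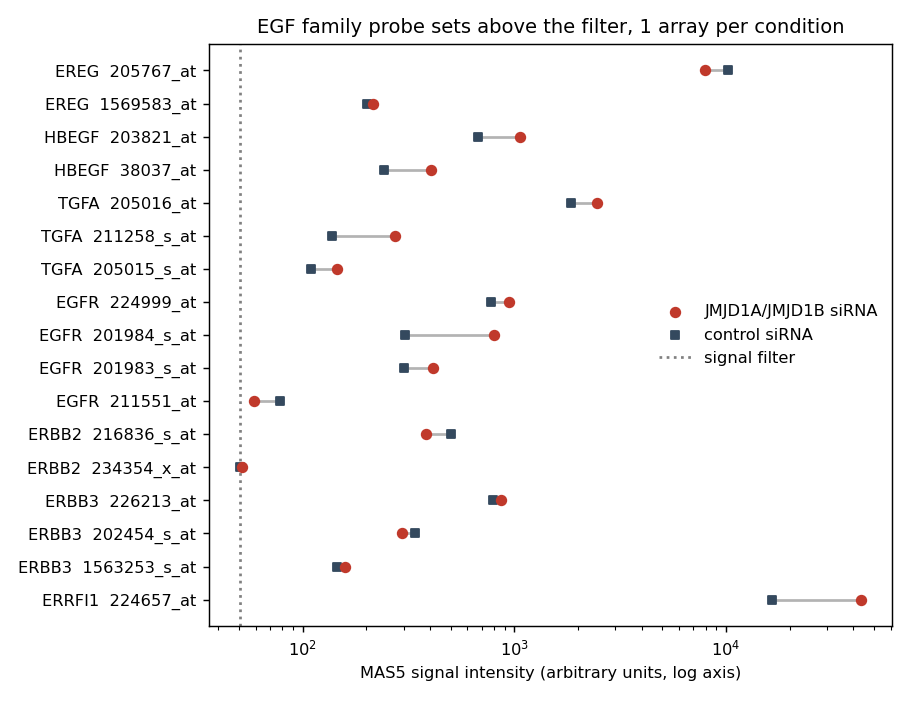
Signal intensity (log axis, arbitrary units) of the 17 measured member probe sets on the double-siRNA array (red circles) and the control array (dark squares), 1 array each, with the signal filter as a dotted line. ERRFI1 and the EGFR probe set 201984_s_at have the widest gaps, and signals compare between arrays within a row only.

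ERRFI1 was the member with the highest ratio. Its single probe set, 224657_at, read 43583 on the double-siRNA array and 16470 on the control array. The gap was 2.65-fold, or 1.40 as a log2 ratio. Of all measured genes, 3.50% had a higher ratio. ERRFI1 was also set beside the genes of its signal range, the 1257 with the brightest probe sets (10% of those measured), which had a median log2 ratio of 0.29. Of these 8.99% were at least 2-fold higher, and 39 genes, ERRFI1 included, had a ratio as high. ERRFI1 stayed above 0 under all 4 other scalings but was under 2-fold in 3 of them, at 0.92 after loess, 0.91 after quantile normalization and 0.79 on the spike-in scale. With 1 probe set there is no second reading of this transcript.

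Of the 3 measured ligands, 2 read higher by the brightest probe set and EREG lower. Among their 7 measured probe sets 6 read higher, where 49.7% of all measured probe sets did. HBEGF, a ligand that also binds heparin, read 1064 on the double-siRNA array and 675 on the control array by its brighter probe set, 203821_at, a log2 ratio of 0.66. Its other measured probe set, 38037_at, read 405 (double-siRNA) and 243 (control), a log2 ratio of 0.73. Both readings are 1.58-fold and 1.66-fold higher and beyond the probe-set SD of 0.53. On the spike-in scale HBEGF would be nearly level, at 0.05. Its 2 other probe sets, 244857_at and 222076_at, lay below the filter on both arrays.

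TGFA, transforming growth factor alpha, was higher by all 3 of its probe sets on the deposited scale. The brightest, 205016_at, read 2456 on the double-siRNA array and 1846 on the control array, a log2 ratio of 0.41. The probe set 205015_s_at read 145 (double-siRNA) and 109 (control), a log2 ratio of 0.41 as well. The third, 211258_s_at, read 274 (double-siRNA) and 137 (control) and was 1.999-fold higher, just under the 2-fold line. So 2 probe sets lay within the probe-set SD and 1 beyond it, and on the spike-in scale the brightest turned to -0.20.

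EREG, epiregulin, was the ligand with a lower signal. Its brighter probe set, 205767_at, read 7952 on the double-siRNA array and 10181 on the control array, or 78.1% of the control reading, a log2 ratio of -0.36. The dimmer one, 1569583_at, read 215 (double-siRNA) and 202 (control), a log2 ratio of 0.09. The probe sets thus disagreed in direction, each within the probe-set SD. After loess the brighter one stood at -0.58 and on the spike-in scale at -0.97.

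**Figure D2:**
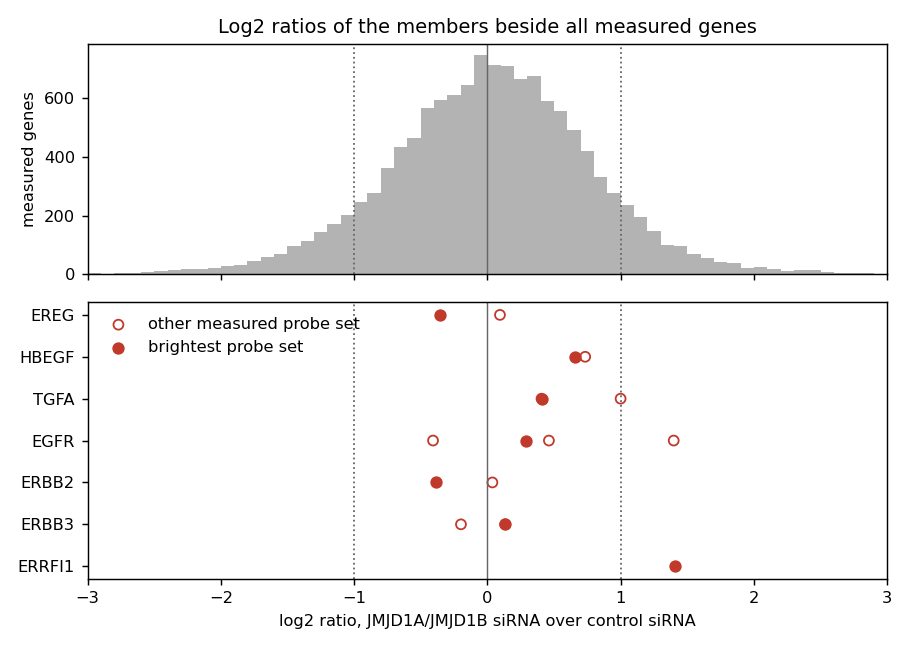
Upper panel, number of measured genes by log2 ratio (JMJD1A/JMJD1B siRNA over control siRNA, bins of 0.1, axis cut at 3 on either side, which leaves out 27 genes). Lower panel, the log2 ratio of each measured member probe set, filled for the brightest of a gene, with dotted lines at 2-fold. Most members lie inside the bulk of all genes, and the EGFR probe sets are the most spread.

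EGFR, the main receptor for these ligands, had 9 probe sets, and the 4 measured ones did not agree. The brightest, 224999_at, read 946 on the double-siRNA array and 776 on the control array, a log2 ratio of 0.29. The probe set 201984_s_at read 803 (double-siRNA) and 305 (control), 2.63-fold apart, or 1.40 as a log2 ratio. The probe set 201983_s_at read 413 (double-siRNA) and 300 (control), a log2 ratio of 0.46. The dimmest measured one, 211551_at, ran the other way, with readings of 58.6 (double-siRNA) and 77.8 (control), a log2 ratio of -0.41. Their ratios spanned 1.81 on the log2 scale, while the median span over the 683 genes with as many measured probe sets was 0.96, and 13.0% of these genes spanned as much or more. A 2-fold difference was thus read by 1 of the 4, and their mean log2 ratio was 0.43. The brightest turned to -0.32 on the spike-in scale, and 201984_s_at stood at 0.79 there, under 2-fold. The 5 unmeasured EGFR probe sets included 211607_x_at, which read 81.6 (double-siRNA) and 12.4 (control), above the filter on the double-siRNA array only. Probe sets of one gene can report different transcripts or ends of a transcript, and which transcripts these report was not tested.

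ERBB2, the receptor without a ligand of its own, read 384 on the double-siRNA array and 501 on the control array by its brightest probe set, 216836_s_at. That is 76.6% of the control signal and a log2 ratio of -0.39, within the probe-set SD. Its second, 234354_x_at, stood at the filter with 51.9 (double-siRNA) and 50.6 (control) and showed a log2 ratio of 0.04. On the spike-in scale the brightest would stand at -0.996, just short of 2-fold lower.

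ERBB3, the kinase-weak partner receptor, was the member closest to level. The brightest probe set, 226213_at, read 869 on the double-siRNA array and 794 on the control array, a log2 ratio of 0.13. The probe set 202454_s_at read 294 (double-siRNA) and 338 (control), a log2 ratio of -0.20, and 1563253_s_at read 159 (double-siRNA) and 145 (control), a log2 ratio of 0.13. All 3 lay within the probe-set SD and they disagreed in direction. The level ERBB3 reading is on the deposited scale, and the brightest probe set would be at -0.48 on that of the hybridization controls.

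The 10 unmeasured member probe sets were 5 of EGFR, 2 of HBEGF, 2 of ERBB3 and 1 of ERBB2. Their signals ran between 2.78 and 81.6, and 8 of the 10 were below the filter on both arrays. The exceptions were the EGFR probe set named above and 215638_at of ERBB3, with 54.1 on the double-siRNA array and 24.03 on the control array. No fold is given for the 10, because their ratios, between -2.96 and 3.12 on the log2 scale, rest on dim signals.

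**Figure D3:**
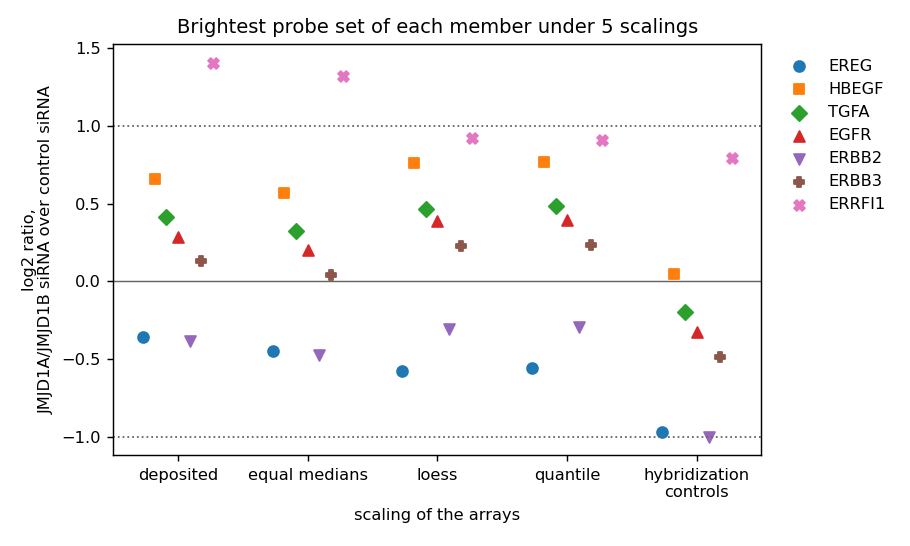
Log2 ratio (JMJD1A/JMJD1B siRNA over control siRNA) of each member's brightest probe set under 5 scalings of the arrays, with dotted lines at 2-fold. ERRFI1 and HBEGF are above 0 and EREG and ERBB2 below 0 under every scaling, while TGFA, EGFR and ERBB3 turn below 0 on the hybridization controls.

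Genes around the members were taken from lists of the pathway. Among the family's other ligands and ERBB4, 2 of 8 were measured. BTC (betacellulin), another EGFR ligand, read 108 on the double-siRNA array and 242 on the control array by its brighter probe set, a log2 ratio of -1.16, but its other probe set read 71.2 (double-siRNA) and 49.7 (control), a log2 ratio of 0.52. NRG1, a ligand of ERBB3 and ERBB4, was under 2-fold at 0.68, with its second measured probe set at -0.04. ERBB4, EGF, NRG2, NRG3 and NRG4 were below the filter, and EPGN was not analysed here.

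Among the proteases that shed the ligands and their regulators, 2 of 7 measured were at least 2-fold higher and none as much lower on the deposited scale, where 8.91% and 8.53% of all genes were, with a median log2 ratio of 0.39 beside 0.04 for all genes. ADAM17, the main protease that sheds HBEGF, TGFA and EREG, read 5947 on the double-siRNA array and 2075 on the control array by its brightest probe set, a 2.87-fold difference. Its 3 probe sets agreed, with log2 ratios between 1.25 and 1.52. RHBDF1 (iRhom1), a partner that carries ADAM17 to the cell surface, read 406 (double-siRNA) and 178 (control), a 2.28-fold difference from 1 measured probe set. ADAM10, the other main ligand sheddase, stood at -0.15 by its brightest probe set, the lowest of 3 measured ones that ran up to 0.82. ADAM15 stood at -0.70 by its brighter probe set and at 0.01 by the other. On the spike-in scale none of the 7 was 2-fold or more higher, ADAM15 was as much lower at -1.31, where 2.15% and 27.7% of all genes were, and the median was -0.22, with ADAM17 at 0.91.

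Among receptor adaptors and signal relay genes, 16 of 23 listed genes had a probe set with a single symbol here and all 16 were measured. No gene was 2-fold or more higher, where 8.91% of all genes were, 1 was 2-fold or more lower, where 8.53% were, and the median was -0.27. SOS1, an exchange factor that loads RAS with GTP, read 941 on the double-siRNA array and 1928 on the control array, a log2 ratio of -1.04. Its 3 measured probe sets ran between -1.04 and 0.26, and after loess the brightest stood at -0.93, under 2-fold. On the spike-in scale the number 2-fold or more lower would be 8 of the 16, where 27.7% of all genes would be. SHC1, an adaptor of the receptors, stood at -0.71 by its brighter probe set. Its dimmer one read 36.8 (double-siRNA, under the filter) and 289 (control), a log2 ratio of -2.97. In the other direction, ARAF stood at 0.05 by its brighter probe set and at 1.77, more than 2-fold higher, by its other measured one.

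Among the 15 measured genes of receptor inhibition and turnover, 1 was 2-fold or more higher, where 8.91% of all genes were, and 2 were 2-fold or more lower, where 8.53% were, the median being -0.04. CBL, a ubiquitin ligase that marks activated EGFR for breakdown, read 227 on the double-siRNA array and 1754 on the control array by its brightest probe set, a log2 ratio of -2.95. Of its 5 measured probe sets, the 3 brightest on the control array lay between -2.95 and -2.08 and the other 2 at -0.18 and 0.14. CBLB, a related ubiquitin ligase, read 713 (double-siRNA) and 333 (control), a 2.14-fold higher signal, with a second probe set at 0.50. SOCS4, a suppressor of cytokine signalling that also acts on EGFR, read 490 (double-siRNA) and 1560 (control) by its brighter probe set, a log2 ratio of -1.67, and 138 (double-siRNA) and 142 (control) by the other, a log2 ratio of -0.04. On the spike-in scale 5 of the 15 were 2-fold or more lower, where 27.7% of all genes were, and no gene was as much higher, where 2.15% were.

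Transcripts that receptor signalling is known to induce were at least 2-fold higher more often than genes overall on the deposited scale. Of 19 measured genes 6 were, or 31.6% beside 8.91% of all measured genes. By the brightest probe set no gene was as much lower, where 8.53% were, and the median was 0.53. Above 0 stood 15 of the 19, where 52.1% of all genes did. SPRED1 at -0.74, CCND1 at -0.44, MYC at -0.43 and ETV4 at -0.37 read lower. The other CCND1 probe set stood at -1.36, more than 2-fold lower. FOS had the highest ratio, at 4.08 from 1 probe set, so without a second reading. The MAP kinase phosphatases DUSP1 at 2.16 and DUSP4 at 1.94 and the transcription factor EGR1 at 1.82 followed. The 3 DUSP1 probe sets lay between 1.13 and 2.16 and the 3 of EGR1 between 1.80 and 1.95. DUSP4 read 9163 on the double-siRNA array and 2385 on the control array, and its 3 probe sets lay between 0.95 and 1.94. The list overlaps the immediate early genes, whose higher signal was known when it was drawn up, so its count is no independent support. On the spike-in scale 4 of the 19 were 2-fold or more higher, where 2.15% of all genes were, 3 were as much lower, where 27.7% were, and the median was -0.08.

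**Figure D4:**
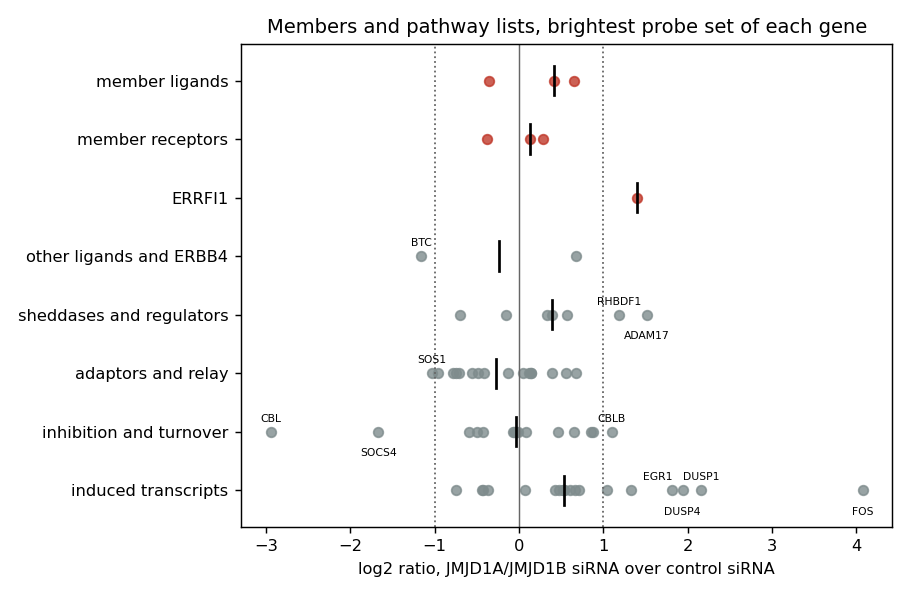
Log2 ratio (JMJD1A/JMJD1B siRNA over control siRNA) of the brightest probe set of each measured gene, for the members (red) and 5 lists of pathway genes (grey), with black bars at each row's median and dotted lines at 2-fold. FOS and CBL lie farthest from 0, and the member ligands and receptors lie within 2-fold.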

How the data were processed

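What the authors deposited is 1 table of linear intensity values, with 54675 probe sets and a column for each of 2 arrays. Per the submitters' processing notes MAS5 produced them, and its version and options are not given in the sources used here. Each deposited column had a trimmed mean of 500.1 (2% off each end), so the arrays had been scaled as wholes. Gene names came from the annotation of the platform, by which 41091 non-control probe sets had 1 symbol, 1801 several and 11721 none. The gene identifiers of the 7 measured members matched the current RefSeq table. Promoter windows are RefSeq's on GRCh38.p14.

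Log2 ratios used no pseudocount. With 1 array per group no test was made. Counts at 2-fold are given with the share of all measured genes, except in the list with 2 measured genes. All members, the siRNA targets and up to 4 genes per pathway list and direction changed at least 2-fold are named, or the gene with the largest change where none was. NRG1, ADAM10, ADAM15, SHC1, ARAF, SPRED1, CCND1, MYC, ETV4 and the unmeasured ligands and receptor were named besides, after their values were seen. Members and lists were chosen with earlier results of these data known. Alternatives were 4 scalings, a pseudocount of 16, 3 filters, 2 probe-set rules and fold thresholds of 1.5 and 3. A planned protein comparison of the ligands was not made. The procedure was tested on simulated data. Python 3.11.15, numpy 2.4.6, pandas 2.3.3, statsmodels 0.14.6 and matplotlib 3.10.9 were used.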

Additional observations from a re-analysis of the deposited data

Results flagged for a closer look

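The hybridization controls, which are no genes and enter only through the alternative scaling, gave a median log2 ratio of 0.61 (double-siRNA over control), and all 18 lay between 0.40 and 0.71. Several probe sets report each added transcript, so they are not 18 independent readings. Of the 5 members with a ratio above 0 on the deposited scale, TGFA, EGFR and ERBB3 had ratios smaller than this shift. What set the controls apart was not tested.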

How the results depend on the processing

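No paired analysis was possible because each condition had 1 array. The count of members at least 2-fold higher was 1 of 7 as reported, where 8.91% of all genes were. It was 0 after loess, after quantile normalization and with the arrays level on the hybridization controls. The shares of all genes there were 9.04%, 9.14% and 2.15%. At a 3-fold threshold it was 0, where 2.3% of all genes were. At a 1.5-fold threshold it was 2 of 7 (ERRFI1 and HBEGF), near the 21.7% of all genes. The count of members lower by the threshold used was 0 under every alternative run. The share of all genes ran from 2.26% (3-fold threshold) to 27.7% (hybridization controls). The median log2 ratio of the members, 0.29, was -0.32 on the hybridization controls and between 0.20 and 0.43 under the other alternatives. On the hybridization controls the ratios were -0.97 for EREG, 0.05 for HBEGF, -0.20 for TGFA, -0.32 for EGFR, -0.996 for ERBB2, -0.48 for ERBB3 and 0.79 for ERRFI1, and among all genes 7.19% in place of 51.1% of those changed 2-fold were higher. With equal medians that share was 41.7%. Without a signal filter 3174 of 19775 genes (16.1%) were at least 2-fold higher, in place of 1119 of 12561 (8.91%). Lower by as much were 2504 (12.7%), in place of 1072 (8.53%). Without _x_at and _s_at probe sets ERBB2 had no value. Signal near the filter limits the readings of 211551_at and 234354_x_at. The cause of these shifts was not tested.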
